A study of Mus musculus with 2 samples.

Results

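Genes of the hypoxia-inducible factor (HIF) pathway and targets of hypoxia were compared between Isl1 mutant and control cells of the embryonic mouse sinoatrial node, the tissue that sets the heart rate. The list held 10 genes, matched by symbol to the deposited gene table: Hif1a, Egln1, Egln3, Bnip3, Ankrd37, Ndrg1, Adm, Vegfa, P4ha1 and Higd1a. Of these, 9 had a value among 12446 gene symbols, and Vegfa was not measured in the table used here and was not analysed. The table lists a gene when at least 1 library reaches 1 RPKM (read number scaled to exon length and to the library total), so a gene with less in both would not be seen.

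Both groups were ICR embryos that carried the reporter Rosa-tdTomato and Hcn4-CreERT2, in which the promoter of Hcn4, a pacemaker channel gene, drives a recombinase that tamoxifen switches on. The mutant genotype was Hcn4-CreERT2; Isl1f/f; Rosa-tdTomato and the control genotype Hcn4-CreERT2; Isl1+/+; Rosa-tdTomato, so the controls shared the recombinase, the reporter and the drug. Tamoxifen was given at E10.5, and nodes were taken 36 hours later, with a stage label of E12.5. Nodes of 1 genotype were pooled, endothelial cells were depleted with CD31 beads and tdTomato-positive cells were sorted, which gave 1 library per genotype. Without replicates no test was made and all differences are described by size. The intervals given are approximate 95% binomial intervals for counting error only.

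HIF is a transcription factor of an oxygen-regulated alpha subunit and a stable partner, ARNT. When oxygen is present, prolyl hydroxylases of the EGLN family mark the alpha subunit for ubiquitination by the VHL complex, and the asparaginyl hydroxylase encoded by Hif1an blocks its coactivators. The alpha subunit is thus controlled mostly as a protein, and an mRNA table does not show its amount. When oxygen is low, HIF raises genes of glycolysis, mitophagy, vessel growth and collagen modification, and also some of its own hydroxylases. The embryonic heart develops at low oxygen tension, and its muscle depends on this pathway.

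Hypoxia targets on the list were higher in the mutant library while Hif1a, the gene of the HIF-1 alpha subunit, was lower. The ratio was above 1 in 8 of the 9 measured genes, beside 32.9% of all genes in the table, and Hif1a was the exception. The list was chosen with earlier results of these data known, so its shares are descriptions and not independent evidence. The median log2 ratio of mutant over control was 1.30 over the 9 genes and -0.22 over all genes of the table. The largest ratios were those of Egln3, Higd1a, Ndrg1, Bnip3 and Ankrd37, which were at least 2-fold higher as plain ratios, beside 3.29% of all genes. Egln3 is listed only because its mutant value passes 1 RPKM, so its direction was fixed by the table's limit. Without it 7 of 8 genes were higher, the median was 1.01 and 4 genes were past 2-fold. A stricter size rule asked for a 2-fold difference on the log2(RPKM + 1) scale and for 5 RPKM in at least 1 library. It counted 3 genes as higher, Bnip3, Higd1a and Ndrg1, where 1.01% of the 6343 genes at that level were, and 0 as lower, where 2.68% were. At 1.5-fold the rule added Ankrd37 and P4ha1 for 5 genes, beside 3.77% of genes higher and 11.8% lower. Over the 5 members that overlap no other gene of the table, Egln3 among them and Hif1a not, the median was 0.72. With 5 RPKM added to both values it was 0.52 over the 9 genes.

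**Figure D1:**
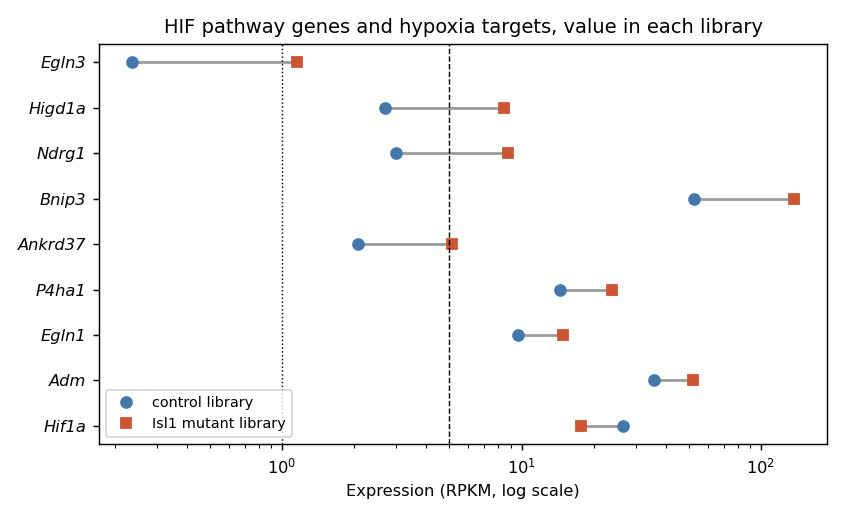
Expression of the 9 measured genes in the control library (circles) and the Isl1 mutant library (squares), in RPKM on a log axis, 1 library per genotype. The dotted line marks 1 RPKM and the dashed line 5 RPKM. The square lies to the right of the circle for 8 genes and to the left for Hif1a.

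The libraries were checked first. Isl1 was at 7.65 RPKM in controls and 1.52 RPKM in mutants, 19.9% of control. The read totals were inferred, as the smallest numbers that turn the values of small RNA genes into whole reads. They were 110117186 for the control and 119018888 for the mutant library, and multiples would fit too. All 7 pacemaker markers were present and lower in the mutant library (219 to 119 RPKM summed). They include Isl1, the gene removed by the design. They also include Hcn4 (1.99 to 0.541 RPKM), which was listed through the control library only, so its direction was fixed. Of 7 heart muscle markers, 6 were higher (6992 to 9562 RPKM). Genes of other cell types were lower in the mutant library. Red cell genes were lower in 11 of 11 measured cases (416 to 71.9 RPKM), white cell genes in 9 of 9 (46.4 to 8.74 RPKM) and mesenchymal genes in 10 of 10 (508 to 222 RPKM). The white cell genes C1qa, C1qc, Ptprc, Fcer1g, Cd68 and Adgre1 and the red cell gene Slc4a1 passed 1 RPKM in the control library only. The table's limit thus fixed their direction. Of 10 early response genes, a class that cell dissociation can induce, 9 were lower (1519 to 1071 RPKM). Epicardial genes were higher in 3 and lower in 4 of 7 cases (88.0 to 106 RPKM). All these marker counts stand beside 67.1% of all genes in the table lower and 32.9% higher. No measured marker stood at 0 in either library. Whether these shifts in other cells take part in the differences of the hypoxia genes was not tested.

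The oxygen-sensing arm of the pathway came first. Hif1a (chromosome 12, 75002362 to 75048517, mm9) measured 26.5 RPKM in control and 17.8 RPKM in mutant cells. The mutant value was 1.49-fold lower, with an interval of 1.46 to 1.53 on at least 15069 and 10905 reads. The median log2 ratio of genes of like level (1 of 20 level classes) was -0.08, and that of Hif1a was -0.58. In pooled cells, fewer cells with a transcript and less of it per cell cannot be told apart. The opposite-strand gene Gm15283, which overlaps Hif1a, was lower as well (10.2 to 7.36 RPKM), and reads of the shared stretch cannot be separated.

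Egln1, which encodes the main prolyl hydroxylase acting on HIF-1 alpha (chromosome 8, 127432496 to 127473154), went the other way, from 9.68 RPKM in control to 14.9 RPKM in mutant cells. It was 1.54-fold higher (interval 1.47 to 1.62). Egln3, the gene of a related hydroxylase that is itself strongly induced by HIF (chromosome 12, 55279968 to 55304847), went from 0.235 to 1.16 RPKM. The ratio of 4.92 was the highest on the list, but it rests on at least 19 and 101 reads and its interval is wide (2.99 to 8.51). Egln3 is in the table only because the mutant library passes 1 RPKM, so it could not have been listed at this control level without a higher mutant value. Of all genes, 467 reached 1 RPKM in the mutant library alone and 1601 in the control library alone. Egln2, the third family member, which is not a typical HIF target, stood at 27.9 and 28.1 RPKM, a 1.01-fold difference with an interval from 0.961 to 1.05. The 3 hydroxylase genes therefore differed between the libraries by unequal amounts, and the abundant one, on the per-length RPKM scale, was the one at nearly equal levels.

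The remaining parts of the HIF machinery had a median ratio near that of the table as a whole, though single genes differed more. Of 17 subunits and regulators besides the listed genes, with Egln2 among them, 16 were measured, 12 lower and 4 higher, beside 67.1% of all genes lower. The median log2 ratio was -0.30 where that of all genes was -0.22, and it was -0.07 after the median of each gene's level class was subtracted. Of the 11 genes that reached 5 RPKM, 0 were at least 2-fold different by the size rule and 3 were at least 1.5-fold lower, beside 11.8% of all genes at that level. These were Arnt, the partner subunit of HIF alpha (9.09 to 5.42 RPKM, 1.68-fold lower), Hif1an, the asparaginyl hydroxylase gene (8.29 to 4.69 RPKM, 1.77-fold lower), and Crebbp, the coactivator CBP (9.84 to 5.79 RPKM, 1.699-fold lower). Ep300, the related coactivator p300, was 1.72-fold lower at a low level (1.30 to 0.759 RPKM). It passed 1 RPKM in the control library only, which fixed its direction.

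Epas1, the HIF-2 alpha gene of endothelial and other cells, went from 1.09 to 0.245 RPKM, on at least 103 and 25 reads. It passed the table's limit in the control library only. Of 7 measured endothelial markers, 6 were lower as well (30.5 to 18.1 RPKM summed), with Tie1 and Emcn also listed through that library only. The part of endothelial cells in the Epas1 value was not tested. Hif3a, which encodes another alpha subunit, stood at 5.27 and 5.25 RPKM. Cited2, a target of HIF that competes for its coactivators, was 1.55-fold lower (3.27 to 2.11 RPKM).

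Genes of the ubiquitin ligase that removes HIF alpha differed by less than 1.5-fold, in both directions. Vhl, its substrate receptor, was 1.246-fold lower (13.2 to 10.6 RPKM). Cul2, the scaffold, had 41.4 and 40.7 RPKM, Rbx1, the RING subunit, 28.1 and 28.7 RPKM, and Tceb1, the elongin C gene, 30.1 and 29.5 RPKM. For each of the last 3 genes the interval of the ratio includes 1. Tceb2, the elongin B gene, was 1.33-fold higher (14.6 to 19.3 RPKM). Ratios in these libraries moved with the length covered by all exons of a gene. The median log2 ratio was 0.0034 in the shortest and -0.26 in the longest of 5 length classes. Each class held 1236 genes, so the classes cover a part of the table. The part of this trend in the values of genes with a great exon length, such as Crebbp, was not tested.

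**Figure D2:**
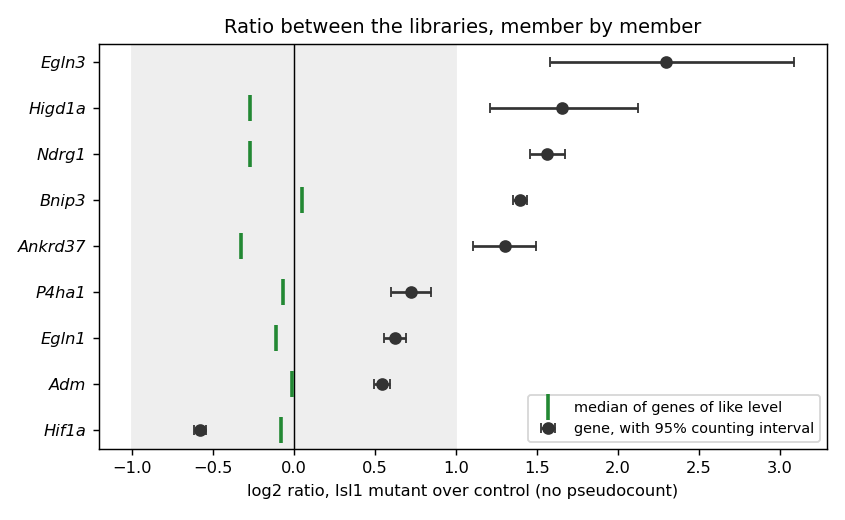
Log2 ratio of mutant over control for each gene (points) with its 95% counting interval (bars), beside the median of genes of like expression level (vertical ticks, left out for Egln3, whose level class is shaped by the table's limit). The shaded band marks ratios under 2-fold; 5 genes lie to its right and Hif1a is the one gene below 0.

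Mitochondrial targets on the list were Bnip3 and Higd1a, both higher in the mutant library. Bnip3, a receptor gene of mitophagy (chromosome 7, 146082519 to 146101202), measured 52.5 RPKM in control and 138 RPKM in mutant cells, on at least 6059 and 17219 reads. It ranked 36 from the top among the 6343 genes that reached 5 RPKM, and it was the only list member past 2-fold that stood above 10 RPKM. Its relative Bnip3l (NIX), which also clears mitochondria from maturing red cells, was 1.34-fold higher (47.3 to 63.4 RPKM).

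Higd1a encodes a small inner-membrane protein that acts on cytochrome oxidase and is induced by HIF. It went from 2.68 to 8.45 RPKM, 3.15-fold higher (interval 2.32 to 4.35), and ranked 20. The value is thin, because 1 exon was used and at least 54 and 184 reads stand behind it. The gene's span in the table (chromosome 9, 121416623 to 121767118) overlaps 6 other genes of the table, so the model behind the value is uncertain. Higd2a, a family member with a related role, was 1.63-fold higher (5.30 to 8.65 RPKM).

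Ndrg1 and Ankrd37 are both hypoxia-induced, and Ankrd37 encodes a small ankyrin-repeat protein. Ndrg1 (chromosome 15, 66760883 to 66801202), a stress-response gene of the NDRG family, measured 2.98 RPKM in control and 8.81 RPKM in mutant cells. It ranked 26. Its relatives did not share this ratio. Ndrg2 stood at 181 and 205 RPKM (1.13-fold higher), Ndrg3 at 14.8 and 10.9 RPKM (1.36-fold lower) and Ndrg4 at 67.5 and 66.6 RPKM, where the interval of the ratio includes 1. The overlapping gene Gm17035 was 2.28-fold higher (3.27 to 7.46 RPKM), and its reads cannot be separated from those of Ndrg1.

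Ankrd37 (chromosome 8, 47082256 to 47085221) went from 2.08 to 5.12 RPKM, 2.46-fold higher (interval 2.16 to 2.82). On the log2(RPKM + 1) scale it was 1.99-fold higher, just under the 2-fold limit of the size rule. Lrp2bp, which starts on the opposite strand within Ankrd37, was 2.95-fold higher (1.62 to 4.77 RPKM, at least 71 and 226 reads). Ufsp2, which touches its other end, was 1.13-fold higher (11.3 to 12.7 RPKM).

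RefSeq promoter windows were read for the listed genes, because HIF binds a short core sequence. Each window runs from 250 bases before to 50 after a gene's start, in the build GRCm38.p6, and 8 of the 9 measured genes matched a window by symbol. Windows are shown for 2 targets with ratios over 2-fold, a collagen hydroxylase gene, the main HIF hydroxylase gene and Hif1a itself. Capitals mark each ACGTG or GCGTG, the letters of the HIF core, read on either strand (as CACGT or CACGC on the other one).
Bnip3, chr7:138909457-138909756, minus strand: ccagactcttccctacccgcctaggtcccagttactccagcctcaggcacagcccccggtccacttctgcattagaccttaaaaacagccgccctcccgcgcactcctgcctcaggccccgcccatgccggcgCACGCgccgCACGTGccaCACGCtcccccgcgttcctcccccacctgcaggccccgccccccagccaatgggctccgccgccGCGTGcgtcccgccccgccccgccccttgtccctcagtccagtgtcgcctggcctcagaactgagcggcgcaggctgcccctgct
Ankrd37, chr8:45999801-46000100, minus strand: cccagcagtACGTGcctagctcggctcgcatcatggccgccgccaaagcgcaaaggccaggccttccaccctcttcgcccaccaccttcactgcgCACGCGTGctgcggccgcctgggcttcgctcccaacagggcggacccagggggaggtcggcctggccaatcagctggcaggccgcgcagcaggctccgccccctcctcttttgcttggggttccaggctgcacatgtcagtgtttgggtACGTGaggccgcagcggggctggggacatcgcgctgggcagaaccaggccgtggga
P4ha1, chr10:59323046-59323345, plus strand: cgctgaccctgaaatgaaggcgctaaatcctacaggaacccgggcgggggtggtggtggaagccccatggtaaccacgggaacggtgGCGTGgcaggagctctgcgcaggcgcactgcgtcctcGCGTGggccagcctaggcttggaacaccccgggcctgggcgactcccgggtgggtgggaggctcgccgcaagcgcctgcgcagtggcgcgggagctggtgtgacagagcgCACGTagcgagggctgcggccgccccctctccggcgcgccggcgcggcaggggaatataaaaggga
Egln1, chr8:124949205-124949504, minus strand: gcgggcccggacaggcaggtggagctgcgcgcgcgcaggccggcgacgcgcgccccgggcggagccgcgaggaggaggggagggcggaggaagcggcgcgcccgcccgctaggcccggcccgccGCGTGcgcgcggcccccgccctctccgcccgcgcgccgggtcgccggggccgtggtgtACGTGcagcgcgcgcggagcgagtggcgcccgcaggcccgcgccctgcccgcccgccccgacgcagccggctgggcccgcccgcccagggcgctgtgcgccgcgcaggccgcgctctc
Hif1a, chr12:73907617-73907916, plus strand: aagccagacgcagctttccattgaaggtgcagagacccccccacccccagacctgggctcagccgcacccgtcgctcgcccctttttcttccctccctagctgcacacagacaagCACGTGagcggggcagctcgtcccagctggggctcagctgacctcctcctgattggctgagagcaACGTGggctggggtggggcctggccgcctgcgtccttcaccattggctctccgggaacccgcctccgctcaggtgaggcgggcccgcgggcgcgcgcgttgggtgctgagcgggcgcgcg

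The motif was present in 8 of the 8 windows, with 1 to 5 matches in each. It was held by 43.8% of all 32851 RefSeq windows and by 61.3% of the 10756 windows of genes with a measured value. These letters contain a CG pair and member windows are rich in CG. Among windows of measured genes with at least 9 CG pairs, the number in the Adm window, the poorest of the members, 69.4% held the motif. The median number of CG pairs was 23 in those windows and 26 in member windows, so they were not matched for CG content. Bnip3 had the most matches, 5, of which 2 are both strands of 1 CACGTG, the E-box that other factors also bind. Hif1a, the gene with a lower value, had 3 matches, 2 of them in 1 CACGTG, so a match did not separate higher from lower genes. Ankrd37 had 4 matches, Higd1a and P4ha1 3 each, Egln1 and Adm 2 each and Egln3 1. A match is a description of letters and not a binding site. The genes were listed as HIF pathway genes and hypoxia targets, so the count of matches does not bear on the difference between the libraries.

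Collagen modification was a further branch. P4ha1, a catalytic subunit gene of collagen prolyl 4-hydroxylase (chromosome 10, 58786044 to 58836052), measured 14.5 RPKM in control and 24.0 RPKM in mutant cells. It was 1.65-fold higher (interval 1.51 to 1.80). P4ha2, which encodes the second catalytic subunit, was 2.76-fold higher (8.43 to 23.3 RPKM), and Plod2, a collagen lysyl hydroxylase gene induced by hypoxia, 1.93-fold higher (20.4 to 39.4 RPKM).

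Other genes of collagen modification did not follow. P4ha3, another catalytic subunit gene, was 4.10-fold lower (4.67 to 1.14 RPKM). P4hb, the shared beta subunit, stood at 248 and 243 RPKM, and Plod1 at 12.9 and 13.8 RPKM. Lox, whose product cross-links collagen, went from 1.47 to 0.253 RPKM on at least 102 and 19 reads and was listed through the control library only. All 10 mesenchymal markers, among them the collagen genes Col1a1, Col1a2 and Col3a1, were lower in the mutant library. Their part in the values of P4ha3 and Lox was not tested.

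**Figure D3:**
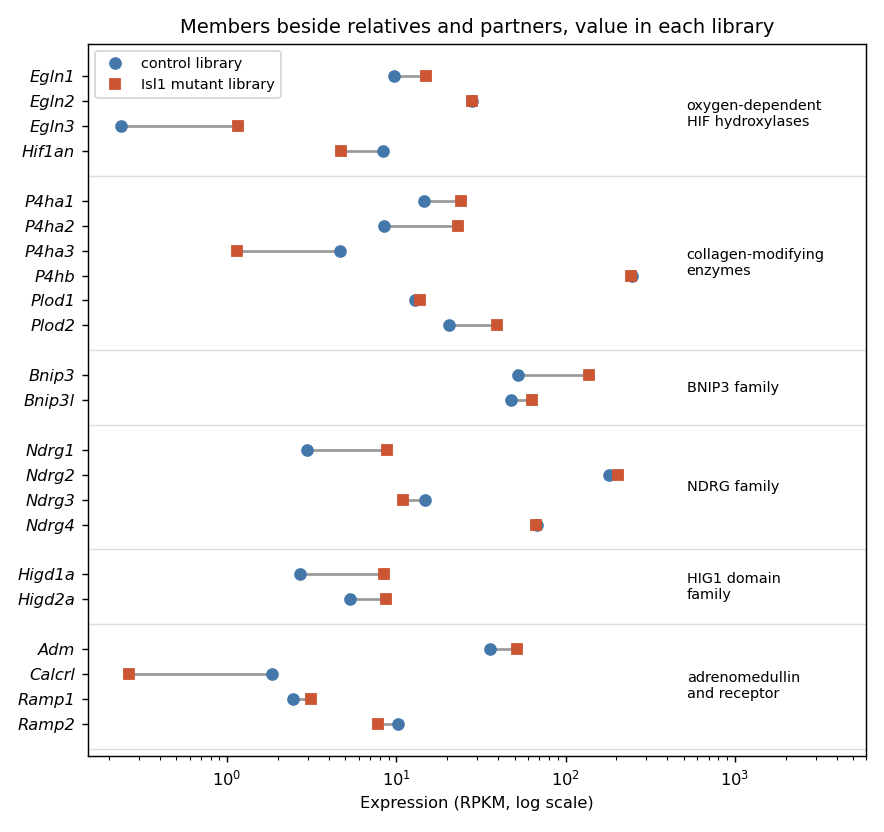
Expression of listed genes beside their relatives and partners in the control library (circles) and the mutant library (squares), in RPKM on a log axis, 1 library per genotype. Within families the genes differ in direction or size: P4ha1 and P4ha2 are higher and P4ha3 is lower in the mutant library, and Egln2, Ndrg4 and P4hb have nearly the same value in both.

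The secreted products on the list were adrenomedullin and vascular endothelial growth factor A. Adm, which encodes the vasodilator peptide adrenomedullin (chromosome 7, 117771175 to 117773331), measured 35.6 RPKM in control and 51.9 RPKM in mutant cells. It was 1.46-fold higher (interval 1.41 to 1.51), the smallest ratio among the 8 higher genes. Its receptor is built from Calcrl and a RAMP protein. Calcrl went from 1.83 to 0.262 RPKM (at least 892 and 138 reads), Ramp2 from 10.2 to 7.77 RPKM and Ramp1 from 2.45 to 3.12 RPKM. Adm and Ramp1 were thus higher in the mutant library and Ramp2 lower. Calcrl was listed through the control library only, so its direction was fixed by the table's limit. Calcrl is known from endothelial cells, which the CD31 step depleted. Their markers were lower in 6 of 7 cases, from 30.5 to 18.1 RPKM summed, with Tie1 and Emcn listed through the control library only. The part of endothelial cells in the Calcrl value was not tested.

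Of the relatives of Vegfa, Vegfb, a family member abundant in heart muscle, was 1.63-fold higher (4.86 to 7.92 RPKM). Pgf, placental growth factor, was 1.76-fold lower (7.16 to 4.07 RPKM). Vegfc had 0.995 and 1.09 RPKM, with an interval of the ratio from 0.892 to 1.36. Kdr, the main VEGF receptor gene, was 2.31-fold lower (7.40 to 3.21 RPKM), and the coreceptor gene Nrp1 1.28-fold lower (19.9 to 15.6 RPKM).

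Further hypoxia targets outside the list were counted in 2 groups, also chosen with earlier results of these data known. Of 41 targets outside glycolysis, 33 were measured, 21 higher and 12 lower, with a median log2 ratio of 0.40. The share of all genes with a higher value was 32.9%. Of the 19 targets that reached 5 RPKM, the size rule counted 2 as at least 2-fold higher, P4ha2 and Fam162a, a mitochondrial target (29.8 to 61.4 RPKM), and 0 as lower, beside 1.01% and 2.68% of all genes at that level. At 1.5-fold the numbers were 7 and 0, beside 3.77% and 11.8%. The other 5 were Plod2, Mif, a cytokine gene (26.2 to 51.0 RPKM), Prelid2 (9.93 to 20.7 RPKM), the nuclear receptor gene Rora (2.49 to 5.64 RPKM) and Ero1l, an oxidase of protein folding (6.15 to 11.0 RPKM). At low level, the hormone gene Stc2 was 2.54-fold higher (0.699 to 1.77 RPKM) and Cox4i2, a subunit gene of cytochrome oxidase that hypoxia induces, 2.53-fold higher (0.666 to 1.69 RPKM). Both passed 1 RPKM in the mutant library only, which is why they are listed.

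Not every classical target was higher. Car9, the carbonic anhydrase IX gene often used as a hypoxia marker, had 1.66 and 1.18 RPKM, and Angptl4, a lipase inhibitor gene, was 1.43-fold lower (13.8 to 9.62 RPKM). Lonp1, a mitochondrial protease gene, was 1.41-fold lower (4.76 to 3.38 RPKM). The repressor gene Nfil3 was 2.18-fold lower at a low level (2.98 to 1.37 RPKM), and Kdm3a, a histone demethylase gene induced by HIF, 1.15-fold higher (13.9 to 16.01 RPKM). Wsb1, a ubiquitin ligase gene, was 1.31-fold lower (30.4 to 23.1 RPKM).

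Of 20 glycolytic targets, 20 were measured, 19 higher and 1 lower, beside 32.9% of all genes higher. The median log2 ratio was 0.67 where that of all genes was -0.22. It was 0.62 after the median of each gene's level class was subtracted. Of the 17 that reached 5 RPKM, the size rule counted 4 as at least 2-fold higher, Slc16a3, Slc2a3, Slc2a1 and Ldha, beside 1.01% of all genes at that level, and 10 as at least 1.5-fold higher, beside 3.77%. None was lower by the rule. The other 6 were the aldolase genes Aldoa (1.62-fold) and Aldoc (1.91-fold), Pgk1, the phosphoglycerate kinase gene (1.77-fold), the enolase gene Eno1 (1.59-fold), Tpi1, the triosephosphate isomerase gene (1.59-fold), and the phosphofructokinase gene Pfkl (1.58-fold). Slc2a3, a glucose transporter gene, went from 5.44 to 15.02 RPKM, Hk2, a hexokinase gene, from 2.13 to 4.69 RPKM, and Pdk1, the kinase gene that limits pyruvate entry into mitochondria, from 6.01 to 7.65 RPKM. Pfkfb4 had 1.52 and 1.48 RPKM, and its interval includes no difference. The difference between the lists was not tested.

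**Figure D4:**
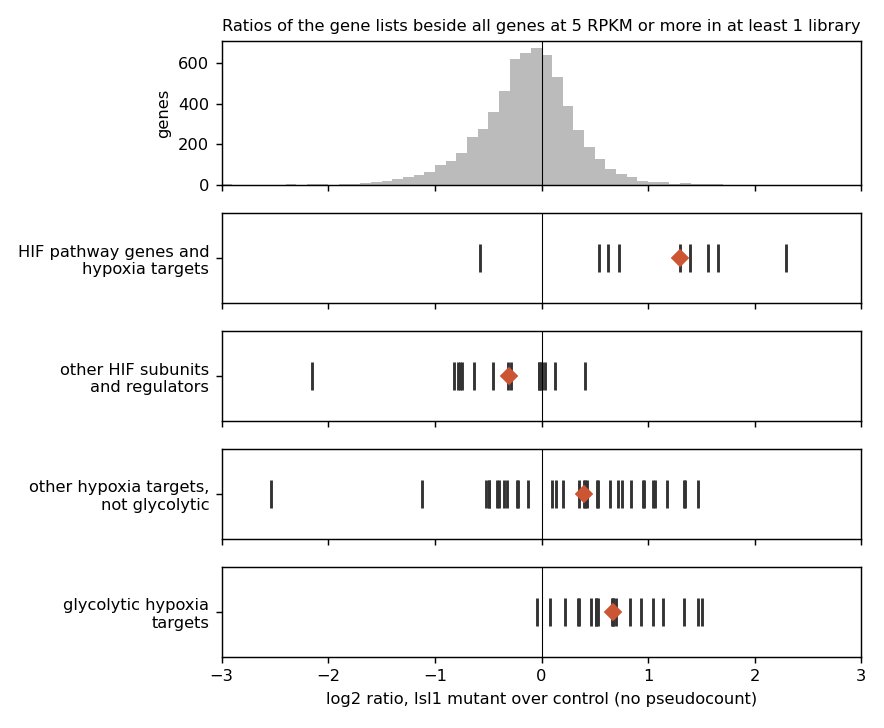
Log2 ratio of mutant over control for every measured gene (ticks) of 4 lists with the list median (diamonds), under the counts of all genes that reached 5 RPKM in either library (top, values past 3 drawn in the end bins). List medians are 1.30, -0.30, 0.40 and 0.67 from top to bottom, and ticks include genes under 5 RPKM.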

How the data were processed

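Total RNA (10 ng) of sorted sinoatrial node cells entered each library, and its poly(A) fraction was sequenced as paired 90 bp reads, per the labels' protocols. The submitters' processing notes name Trim Galore, FastQC, TopHat2, Bowtie2 and mm9 without versions or roles, and the counting tool is not stated. The deposited table gives 1 value per gene and library over constitutive exons, with no unit in the header. Its deposited values were read as RPKM on the basis of 288 small RNA genes. Value times length times the inferred library total came out whole for 288 in the control and 280 in the mutant library (tolerance 0.01 reads). Each total was itself chosen to give whole numbers. The authors' deposited log2 ratio equals that of the RPKM values within 1.89e-07, and a signed fold score deposited beside it was not used.

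Reads were recovered as the smallest whole numbers that fit both values, so the true numbers can be multiples of them. Intervals of folds come from binomial limits (Clopper-Pearson, 95%) on the recovered reads and the inferred totals, and cover counting error only. They are approximate. Mates and PCR copies are not independent, which makes them too narrow, and recovered reads below the true numbers make them too wide. Where a symbol had several entries, the one with the highest mean entered. Level classes are 20 equal groups by the geometric mean of both libraries, and exon lengths came from GENCODE M 21 for 12069 table entries (96.1%). Named genes were the listed genes, Isl1, genes of the HIF machinery, targets at least 1.5-fold different at 5 RPKM or more, up to 4 targets per list and direction with the largest ratios at any level, and relatives of the listed genes. Overlap partners and the targets Kdm3a, Pdk1, Wsb1, Car9 and Plod1 were named after their values were seen. The listed genes and the other lists were chosen with earlier results of these data known. Alternatives were other pseudocounts, floors, folds and scalings and the removal of level and length trends. Scripts were tested on simulated data with Python 3.11.15, numpy 2.4.6, pandas 2.3.3 and scipy 1.17.1.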

Additional observations from a re-analysis of the deposited data

How the results depend on the processing

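The ratio of each of the 9 measured genes kept its direction under the 6 alternatives applied to single genes (54 values, 0 changes of sign). Most of these outcomes were fixed in advance. A pseudocount cannot change a sign, and centring and upper-quartile scaling shifted log2 ratios by less than the smallest of them. Only removal of the level or length trend could have changed one. Sizes moved more, with log2 ratios from 0.23 to 4.34 for Egln3, 0.79 to 1.92 for Ndrg1 and 1.31 to 1.52 for Bnip3. The median log2 ratio of 1.30 was 1.12 with a pseudocount of 0.5 and 0.52 with one of 5, 0.63 over the 5 genes at 10 RPKM or more, and 1.42 after upper-quartile scaling, which raises all ratios by 0.12. Centring on the median of well-expressed genes or removing the level or length trend gave 1.35 to 1.37. The count of 8 higher genes was 4 of 5 at the floor of 10 RPKM. The count of 3 genes at least 2-fold higher was 4 with a pseudocount of 0.5, with centring, with upper-quartile scaling and with either trend removed. It was 1 with a pseudocount of 5 and 1 with the floor of 10 RPKM, 5 at 1.5-fold and 7 at the smallest fold tried.

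Alternatives chosen after seeing the data left out Egln3, which reaches 1 RPKM in 1 library only (median 1.01), or the 4 genes that overlap another gene (median 0.72, 5 of 5 higher, 1 at least 2-fold higher), or used plain ratios with no floor (5 at least 2-fold higher). These changes follow from the values added or the genes left out. The 5 genes with no overlap still include Egln3, whose direction was fixed by the table's limit, and leave out Hif1a, the only lower gene. No paired analysis was possible because each genotype has 1 library. Depth limits Egln3 and Higd1a most, with at least 19 and 54 control reads.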
